A study of Mus musculus with 42 samples.

Results

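The 10 genes described here encode interferon-induced GTPases of 2 families, the guanylate-binding proteins (Gbp2, Gbp3, Gbp5, Gbp7 and Gbp8) and the immunity-related GTPases (Igtp, Irgm1, Irgm2, Iigp1 and Ifi47). They were chosen by symbol among the 47643 genes of the deposited tables, and all 10 were found and passed the filter on low values. Macrophages came from C57BL/6 mice of 2 ages, young (2 to 3 months) and aged (18 to 20 months). Cells were collected at zeitgeber times 0, 4, 8, 12, 16, 20 and 24 (ZT, the hour in the light cycle of the mice). Each age at each time makes a group of 3 libraries, which gives 14 groups and 42 libraries. The labels give no treatment and no genotype besides the strain, and do not name the organ the macrophages came from. Whether replicates are different animals is not stated there, so a p-value here covers the spread between libraries, and this spread may be technical.

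Interferon-gamma, made mainly by T and natural killer cells, binds the receptor encoded by Ifngr1 and Ifngr2 and acts through the kinases encoded by Jak1 and Jak2. Target promoters carry gamma-activated sites (GAS), and among the induced genes is Irf1, whose product binds interferon-stimulated response elements (ISRE). The GTPases are among the most strongly induced targets in macrophages, where they gather on vacuoles that hold bacteria or protozoan parasites. The guanylate-binding proteins help to break such vacuoles and to start inflammasome signalling. Among the immunity-related GTPases, Irgm1, Irgm2 and Igtp are regulators that guard the cell's own membranes, and Iigp1 and Ifi47 belong to the effectors.

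Promoter sequence is shown because these genes move together, as described below for the single libraries. RefSeq promoter windows (build GRCm38.p6, 250 bases before to 50 after the start) were held for 8 of the 10 genes, and Gbp8 and Iigp1 had none. Gbp3 had 2 windows, the second with no match. Counts below are by gene, whereas the shares beside them are by window. The letters GAAANNGAAA (ISRE; TTTCNNTTTC on the other strand) were found in 7 of the 8, all but Ifi47, and in 3.44% of all 32851 windows of the same length. The letters TTCNNNGAA (GAS, the same on both strands) were found in 4, Gbp5, Gbp7, Igtp and Irgm2, and in 8.3% of all windows. All 4 also held the ISRE letters, and no ISRE match overlapped a GAS match. Of all windows 0.454% held both the ISRE and the GAS letters. The E-box letters CACGTG, which the clock proteins CLOCK and BMAL1 bind, were in none of the 8 genes and in 7.15% of all windows. A match is only a match of letters, and no match says only that these letters are not in this window. The 110 bases that end just before the start are printed for 6 genes, 5′ to 3′ along the gene, with ISRE and GAS matches in capitals; Ifi47 is the one with neither.
Gbp2 (chr3:142620553-142620662, plus strand): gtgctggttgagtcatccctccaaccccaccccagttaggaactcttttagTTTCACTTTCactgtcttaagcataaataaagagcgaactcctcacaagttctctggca
Gbp7 (chr3:142530226-142530335, plus strand): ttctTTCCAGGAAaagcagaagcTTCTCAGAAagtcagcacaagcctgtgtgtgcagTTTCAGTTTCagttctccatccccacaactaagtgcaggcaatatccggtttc
Igtp (chr11:58199446-58199555, plus strand): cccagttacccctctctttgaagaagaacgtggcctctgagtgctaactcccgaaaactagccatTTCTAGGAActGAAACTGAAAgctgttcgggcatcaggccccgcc
Irgm2 (chr11:58214867-58214976, plus strand): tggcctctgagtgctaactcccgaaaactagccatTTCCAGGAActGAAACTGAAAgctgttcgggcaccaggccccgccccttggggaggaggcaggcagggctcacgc
Irgm1 (chr11:48871421-48871530, minus strand): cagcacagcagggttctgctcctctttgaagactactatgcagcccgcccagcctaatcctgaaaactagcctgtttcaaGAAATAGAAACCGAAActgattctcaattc
Ifi47 (chr11:49076477-49076586, plus strand): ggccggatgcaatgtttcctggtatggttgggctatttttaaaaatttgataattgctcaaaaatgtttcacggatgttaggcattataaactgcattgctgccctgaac
In Igtp the GAS match begins 45 and the ISRE match 34 bases before the start, with the GAS first. Irgm2 has the same order, at 75 and 64 bases. All distances are from the start of the RefSeq window, which can differ from the end of the gene model given below. The Irgm2 and Gbp5 windows lie inside their gene models. At a shift of 30 bases, the one that gave the most identical bases, 100 of the 110 Igtp bases shown are identical in Irgm2, which is 90.9%. Over the 270 bases of the 2 windows aligned at this shift, 184 are identical, which is 68.1%. In Gbp7 both GAS matches, at 106 and 87 bases, come before the ISRE match at 53. Gbp2 has its ISRE match at 59 bases, and Irgm1 a pair of overlapping ones at 30 and 24.

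The genes lie on 4 chromosomes (GENCODE M21, build GRCm38). Gbp5 (142493978 to 142522344), Gbp7 (142530342 to 142550149), Gbp3 (142560026 to 142573209) and Gbp2 (142620602 to 142638008) stand in this order on the plus strand of chromosome 3. Gbp8 is on the minus strand of chromosome 5 (105014150 to 105139540). Irgm1 (48861968 to 48871683, minus strand), Ifi47 (49076587 to 49096974, plus strand), Igtp (58199556 to 58207591, plus strand) and Irgm2 (58199618 to 58222782, plus strand) are on chromosome 11, and Iigp1 is on the plus strand of chromosome 18 (60376027 to 60392634). The gene models of Gbp8, Gbp4 and Gbp9 overlap on one strand, and so do those of Igtp and Irgm2 and of Ifi47 and Olfr56. Reads could be split between such neighbours in a way the deposited counting does not tell, so their separate values are uncertain.

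Libraries held 7433159 to 13574542 reads in genes in young and 4864402 to 15587030 in aged macrophages. Levels are given as rescaled reads, that is reads put on a common scale over the 42 libraries. A read marks the 3′ end of a transcript. All 8 macrophage markers of a fixed list (Adgre1, Csf1r and others) were measured, and their summed level was 222331 to 334929 in young and 178334 to 315082 in aged libraries. Most of this sum was Lyz2, with a mean of 253063 in young and 213764 in aged libraries. Markers of other cells were present too. The summed level of 18 T and natural killer cell genes was 181 to 443 in young (median 309) and 215 to 4441 in aged libraries (median 599), and that of 9 B cell genes 5004 to 9280.3 (median 6586) and 5056 to 20456 (median 10016). Ifng itself had no read in 17 of 21 young and 19 of 21 aged libraries, and at most 9 reads in a young and 2 in an aged one.

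A set of 5 libraries stood apart from the rest in these genes, and they bear on every comparison below. They are described here one by one, since they were noticed in the values of the genes themselves and are no group of the study. In young replicate 3 at ZT4 all 10 genes were at least 2-fold above their median over the 21 young libraries, with a median fold of 6.12, and each had its highest young value there. In young replicate 2 at ZT4 all 10 were again above 2-fold, with a median of 3.53; this is 1 of 3 libraries in which the recovery of whole reads could not be checked. Of the aged libraries, replicate 3 at ZT12 had 9 genes above 2-fold (median 3.20), replicate 1 at ZT16 had 8 (median 2.40) and replicate 2 at ZT12 had 4 (median 1.79). Each of the other 37 libraries had at most 2. The share of all 12086 tested genes at least 2-fold above the median of their age was 2.6% and 1.89% in young replicates 2 and 3 at ZT4. It was 2.51% and 2.37% in aged replicates 2 and 3 at ZT12, and 2.88% in aged replicate 1 at ZT16.

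**Figure D1:**
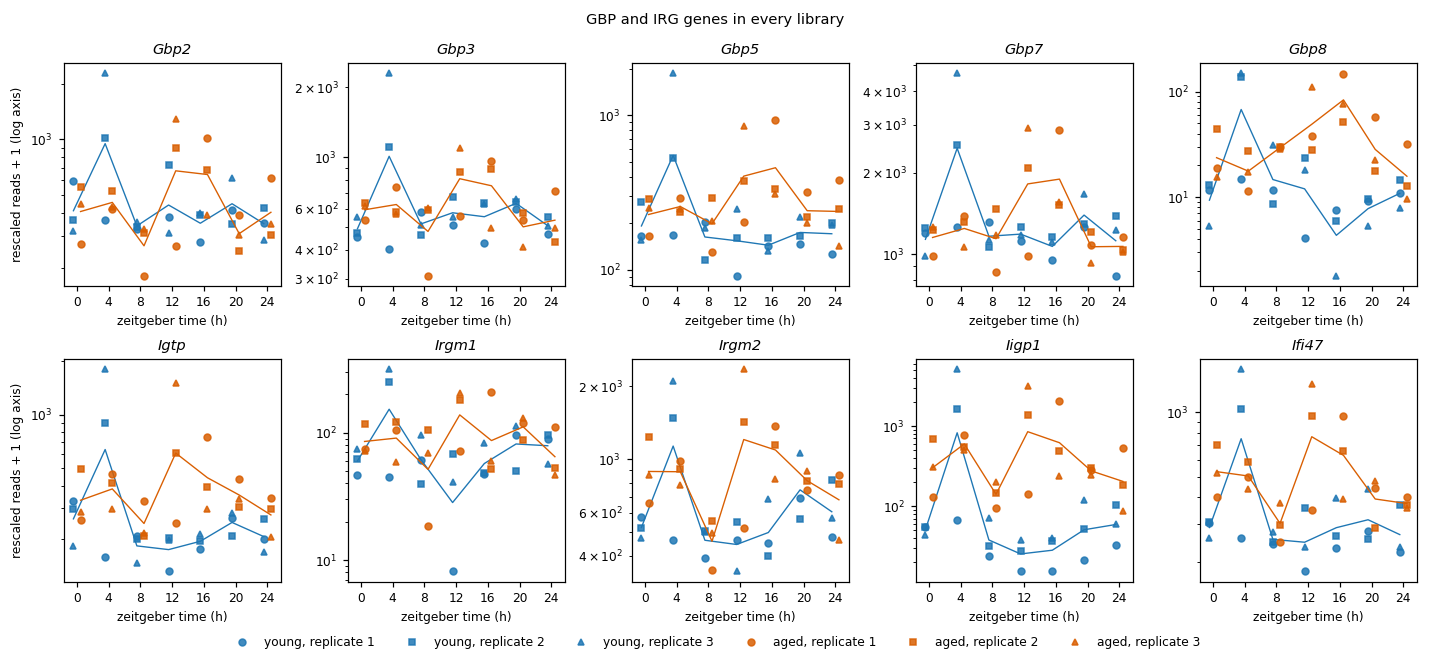
Rescaled reads plus 1 (log axis) of each gene in each of the 42 libraries against zeitgeber time in hours. Blue is young and orange aged, symbols are replicates 1 to 3, and lines join the group means on the log scale. At ZT4 the 2 highest young points stand above the third in all 10 panels, and in aged libraries the high points fall at ZT12 and ZT16.

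Among the guanylate-binding proteins, Gbp2, which is drawn to parasite vacuoles, had 365, 1016 and 2279.6 rescaled reads in young replicates 1, 2 and 3 at ZT4. Its lowest, median and highest values over the young libraries were 278, 366 and 2279.6, so replicate 1 sat at the median while replicate 3 was the highest of all. In aged libraries Gbp2 had 265, 897 and 1289 at ZT12 and 1012, 681 and 387 at ZT16, within a range of 182 to 1289 (median 389).

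Gbp5, which promotes assembly of the NLRP3 inflammasome, spread further, with 167, 527 and 1867 in young replicates 1 to 3 at ZT4 against a young median of 165. The aged values were 203, 375 and 855 at ZT12 and 931, 331 and 308 at ZT16, with a median of 249 over the aged libraries. The highest value was thus in replicate 3 at one time and in replicate 1 at the next. Gbp7, linked to oxidant production on the phagosome, had 1262, 2528 and 4659 at ZT4 in young macrophages (median 1221 over the day). Aged macrophages had 982, 2079.8 and 2928 at ZT12 and 2881, 1512 and 1551 at ZT16 (median 1201). Gbp3, a neighbour in the same cluster, followed with 401, 1113 and 2304 at ZT4 in young libraries, of which the first was the lowest and the last the highest of the 21.

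Gbp8 of the chromosome 5 cluster had the fewest reads. It was at 14.01, 137 and 148 in young replicates 1 to 3 at ZT4, and between 0.807 and 30.1 in every young library of another time. In aged macrophages it was at 36.6, 27.2 and 110.01 at ZT12 and at 145, 50.7 and 75.7 at ZT16, with a median of 27.8 over the day.

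Of the regulators among the immunity-related GTPases, Igtp (also called Irgm3) had 158, 902 and 1807 in young macrophages at ZT4 and 247, 605 and 1506 in aged ones at ZT12. Irgm2 had 464, 1480.1 and 2098 at ZT4 in young and 521, 1422 and 2348 at ZT12 in aged libraries. Replicate 1 lay below the median of its age for both genes in both groups (203 and 325 for Igtp, 521 and 828 for Irgm2). Irgm1, a gene needed for control of mycobacteria in mice, was at 44.0, 251 and 315 at ZT4 in young and at 70.4, 180.3 and 203 at ZT12 in aged libraries. Its lowest values were 7.14, in young replicate 1 at ZT12, and 17.7, in aged replicate 1 at ZT8.

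Iigp1 encodes Irga6, an effector that loads onto vacuoles of Toxoplasma, and it had the widest range. Young replicates 1, 2 and 3 at ZT4 held 66.1, 1625 and 5149.8 rescaled reads, and every other young library held 14.3 to 117. Aged replicates 1 to 3 held 141, 1381 and 3147 at ZT12 and 2061, 485 and 237 at ZT16. The remaining aged libraries lay between 86.2 and 764, so most of them were above all young libraries outside ZT4. By group mean the aged order was ZT12 (1556 ± 1511, SD, n = 3), ZT16 (928 ± 989.7), ZT4 (607 ± 138), ZT0 (373 ± 282), ZT20 (276 ± 28.4), ZT24 (265 ± 232) and ZT8 (146 ± 51.8). The SD of ZT12 and ZT16 was near or above the mean, so their place in this order rests on single libraries. In young macrophages ZT4 stood at 2280.1 ± 2604 (SD, n = 3), and the other 6 group means were 26.1 to 64.4, with neighbours closer than their SD. Ifi47, which encodes Irgd, had 257, 1035 and 1588 in young libraries at ZT4 and 348, 961 and 1349 in aged ones at ZT12.

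In 4 of the 5 libraries Irf1 and several interferon-gamma targets were also at least 2-fold above the median of their age, and the receptor and kinase genes were not. In aged replicate 2 at ZT12 Irf1 was 1.34-fold of it. Irf1, the transcription factor that binds ISRE, had 1767, 5209.8 and 10966 rescaled reads in young replicates 1 to 3 at ZT4 (young median 2064). It had 2442, 4230.1 and 7734 in aged libraries at ZT12, and 6646, 2743 and 3067 at ZT16 (aged median 3159). Ifngr1, Ifngr2, Jak1 and Jak2 were between 0.593-fold and 1.21-fold of the median of their age in all 5 libraries. Of 13 signalling genes tested 1, 3, 0, 2 and 2 were above 2-fold in young replicates 2 and 3 at ZT4, aged replicates 2 and 3 at ZT12 and aged replicate 1 at ZT16. Of 14 other interferon-gamma targets tested, 10 and 12 were above 2-fold in young replicates 2 and 3 at ZT4, 0 and 9 in aged replicates 2 and 3 at ZT12, and 6 in aged replicate 1 at ZT16. Cxcl9, a chemokine gene induced mainly by this interferon, was 13.7-fold, 15.9-fold, 1.26-fold, 12.1-fold and 11.7-fold of the median in the same order. Cxcl10 was 0.154-fold of it in aged replicate 2 at ZT12 and 6.33-fold to 121-fold in the other 4. Ciita was 0.646-fold in young replicate 3 at ZT4 and 1.20-fold to 1.56-fold in the other 4. These 3 targets are named outside the rule for named genes given below. Of 14 targets of type I interferon, 4, 11, 1, 5 and 7 were above 2-fold. Of 18 partner genes of autophagy and the inflammasome, 0, 1, 0, 0 and 0 were.

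Ifng had 0 reads in each of the 5 libraries. A count of 0 allows up to 3 reads of a library's total, a limit that covers counting error only. The summed T and natural killer cell markers stood at 354 and 368 in young replicates 2 and 3 at ZT4, against 309 in replicate 1. They stood at 4441, 741 and 599 in aged replicates 1 to 3 at ZT12. At ZT16 they were 715, 537 and 361. In aged replicate 1 at ZT16, 5 of 8 markers of monocyte-derived macrophages were also at least 2-fold above their aged median, and the sum of the 8 was 43942 against 21934 and 17970.0 in the other 2. Most of such a sum is Retnla, whose mean over the aged libraries was 17566, beside a median sum of 20138. Neither other aged library nor the young ones showed more than 1 of these 8 above 2-fold. The part of either set of markers in the GTPase values of these libraries was not tested. Mitochondrial genes took 1.74% and 1.39% of reads in the young and 2.03%, 2.07% and 1.37% in the aged libraries named, within the 1.35% to 2.27% of all 42.

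**Figure D2:**
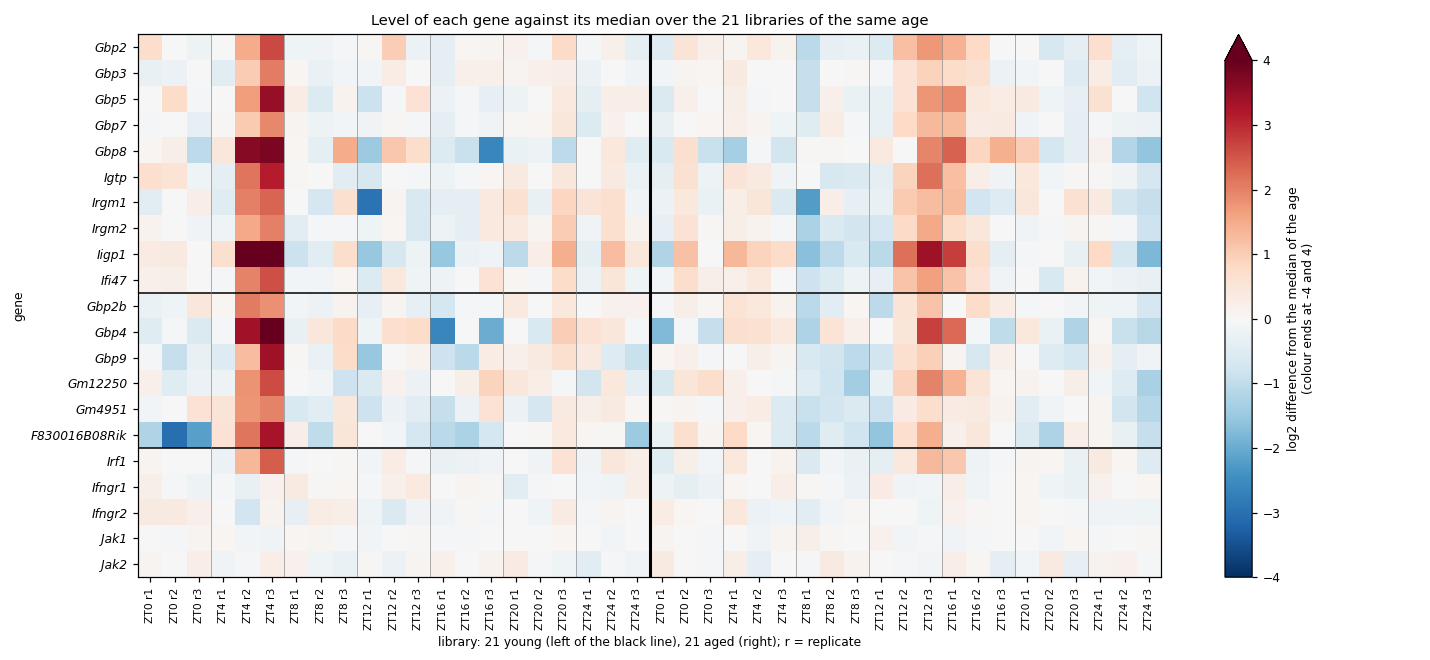
Log2 difference of each gene (rows) from its median over the 21 libraries of its age, in each library (columns, young left and aged right of the black line). Rows are the 10 GTPase genes, 6 other genes of the 2 families and 5 of the pathway. Young replicates 2 and 3 at ZT4 are red over all 10 GTPase rows. Aged replicate 3 at ZT12 and replicate 1 at ZT16 are red over most of them, aged replicate 2 at ZT12 is red over fewer and pale for Gbp8, and the receptor and kinase rows are pale.

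The 10 genes moved together between libraries of one group. After the 14 group means were taken out, the 45 pairs had Pearson correlations of 0.43 to 0.91 over the 42 libraries, with a median of 0.79; the 9 pairs with Gbp8, the gene of fewest reads, had a median of 0.56. Part of this rests on the libraries that stood apart. Without the 9 libraries of the young ZT4, aged ZT12 and aged ZT16 groups the range was 0.04 to 0.76 and the median 0.48 (33 libraries). All points of a pair share a library and its scaling, and these values are descriptions. The SD between libraries of a group, on the log2 scale, had a median of 0.68 over the 10 genes in young and 0.64 in aged macrophages, beside 0.27 and 0.31 over all genes tested, and each of the 10 was above the latter in both ages. The widest was Iigp1 (1.44 and 1.28) and the narrowest Gbp7 in young (0.41) and Gbp3 in aged macrophages (0.39).

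Among the 6 genes most like the mean of the 10, by correlation over the 42 libraries without group means, were Irf1 (0.94), Nampt (0.89), Samhd1 (0.88), Psmb8 (0.88) and Gbp4 (0.87). Nampt encodes an enzyme of NAD synthesis, Samhd1 a dNTPase that restricts retroviruses and Psmb8 a subunit of the immunoproteasome. Without the same 9 libraries the values were 0.83, 0.74, 0.63, 0.73 and 0.69. Cxcl9 had 0.73 over the 42 libraries and 0.36 without the 9, and Socs1, a feedback inhibitor of the pathway, 0.68 and 0.41. Of the type I interferon targets, Rsad2 had 0.61 and 0.66, and Irf7 0.53 and 0.20. Over the 42 libraries Ifngr1 (0.05), Ifngr2 (0.03) and the B cell gene Ms4a1 (0.03) were near 0. So were the T and natural killer cell genes Ccl5 (−0.11) and Nkg7 (−0.11), and Jak1 was at −0.60.

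The first comparison asked whether the mean level over the day differed with age. Iigp1, Gbp8, Ifi47, Igtp and Irgm2 were higher in aged macrophages, and none of the 10 was lower. Of all 12086 genes tested 23.7% were called, 12% higher and 11.7% lower, at a Benjamini-Hochberg adjusted p under 0.05 by limma. The median log2 difference was 0.48 over the 10 and 0.00 over all genes. All differences here are on the scale of log2(rescaled reads + 1), which understates the change of genes with few reads. Less RNA of a gene per cell and fewer cells that hold it cannot be told apart in these bulk libraries.

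Iigp1 had a lowest, median and highest value of 14.3, 42.5 and 5149.8 in young and of 86.2, 301 and 3147 in aged libraries. The ranges overlap, outside the young ZT4 libraries only between 86.2 and 117, and the aged median was above the young one. The log2 difference, 2.54 ± 0.36 (SE), was the largest of the 10 (limma, adjusted p = 6.28e-07). For Gbp8 the values were 0.807, 10.1 and 148 against 8.62, 27.8 and 145, a log2 difference of 1.30 ± 0.28 (limma, adjusted p = 5.23e-04). Ifi47 was at 179.6, 263 and 1588 against 246, 435 and 1349, with 0.59 ± 0.15 (limma, adjusted p = 0.00366). Igtp rose by 0.56 ± 0.18 (131, 203 and 1807 against 205, 325 and 1506) and Irgm2 by 0.47 ± 0.14 (343, 521 and 2098 against 347, 828 and 2348), with adjusted p of 0.0218 and 0.0131 by limma.

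The other 5 did not pass. Gbp5 had a log2 difference of 0.49 ± 0.19 (limma, adjusted p = 0.0587) and Irgm1 one of 0.36 ± 0.24 (0.297). Gbp2 (−0.04 ± 0.17), Gbp3 (0.02 ± 0.12) and Gbp7 (0.00 ± 0.11) lay within 1 SE of 0. Of the 4 genes of the chromosome 3 cluster none was thus called, and of the 5 immunity-related GTPases 4 were.

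**Figure D3:**
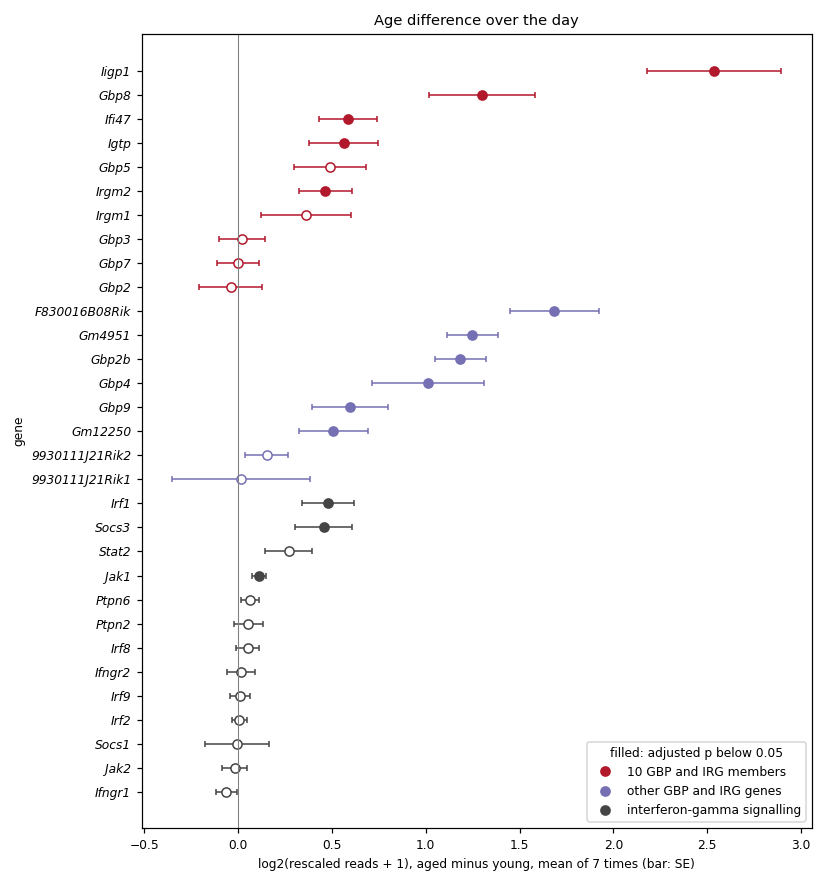
Log2 difference between aged and young macrophages, as the mean of the 7 times, on the scale of log2(rescaled reads + 1). Bars are SE, filled points passed an adjusted p of 0.05, and colours give the 10 genes, the other family genes and the signalling list. Iigp1 (2.54) lies farthest right, and Gbp2, Gbp3 and Gbp7 lie within 1 SE of 0.

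The number of calls changed with the libraries and covariates used. Without the ZT12 and ZT16 libraries 1 of the 10, Iigp1, was still called (1.65 ± 0.38; limma, adjusted p = 0.00204), and the log2 differences of Gbp8, Igtp, Irgm2 and Ifi47 were 0.56, 0.19, 0.14 and 0.27, while 18.5% of all genes were called. Without the 5 libraries that stood apart, Gbp5 was at 0.52 ± 0.14 and Iigp1 at 2.56 ± 0.25. That left 1 library in the young ZT4 group and 1 in the aged ZT12 group. The 5 were picked by the values of the 10 genes, so leaving them out narrows the spread of these genes. Calls of the level tests without them are therefore not given. Summed B cell markers were higher in aged libraries, and with a B cell marker score as a covariate only Iigp1 and Gbp8 of the 10 were called (2.44 ± 0.52 and 1.61 ± 0.41), beside 10.9% of all genes. Without the score their SE were 0.36 and 0.28. The score moves with age, so B cell content and age cannot be told apart in this fit. With a T and natural killer cell score the same 5 were called, beside 15% of all genes. Igtp was not called without a filter on low values (limma, adjusted p = 0.0629) or with DESeq2 (0.0511), nor Irgm2 without the ZT0 libraries (limma, adjusted p = 0.0553).

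Of 15 other genes of both families 8 could be tested, and 6 were higher in aged macrophages and 0 lower. Over all genes tested 12% were higher and 11.7% lower. Gbp2b, a close relative of Gbp2, was at 497 to 3419 in young (median 805) and 960.3 to 4504 in aged libraries (median 2035), a log2 difference of 1.19 ± 0.13. Gm4951 (1.25 ± 0.14) and F830016B08Rik (1.69 ± 0.23), gene models of the immunity-related GTPases on chromosome 18 like Iigp1, had limma adjusted p of 3.39e-09 and 5.05e-07. Gbp4 (1.01 ± 0.30), Gbp9 (0.60 ± 0.20) and Gm12250 (0.51 ± 0.18), which encodes the effector Irgb10, also passed. Chromosome 3 thus held 1 called gene, Gbp2b, beside the 4 that were not. 9930111J21Rik1 (0.02 ± 0.37) and 9930111J21Rik2 (0.15 ± 0.12) were not called.

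Of 13 tested genes of interferon-gamma signalling 3 were higher and 0 lower. For this and the next lists, 23.7% of all genes tested were called, 12% higher and 11.7% lower. The share called among the signalling genes and among the partners below was near that, so it is no result about these lists. Irf1 rose by 0.48 ± 0.14, while Ifngr1 (−0.06 ± 0.06), Ifngr2 (0.02 ± 0.07), Jak2 (−0.02 ± 0.07), Irf8 (0.05 ± 0.06) and Socs1 (−0.01 ± 0.17) were not called. Jak1 was called at a difference of 0.11 ± 0.04, and the last of the 3 was the feedback inhibitor gene Socs3 (0.46 ± 0.15), a gene chosen for naming after its value was seen. Of 14 other interferon-gamma targets 6 were higher and 0 lower, with the lowest p for Upp1 (2.33 ± 0.31), which encodes uridine phosphorylase, the Fc receptor gene Fcgr4 (1.25 ± 0.18) and Cd274 (0.78 ± 0.14), which encodes PD-L1. Of 14 type I interferon targets 9 were higher and 0 lower, among them Ifi44 (2.88 ± 0.37), Rsad2 (0.83 ± 0.18) and Irf7 (0.61 ± 0.14). Among 18 partners on the vacuole and in the inflammasome 4 were higher and 1 lower; the autophagy receptor gene Sqstm1 was at 0.34 ± 0.05, Atg5 at 0.24 ± 0.05 and the DNA sensor Aim2 at 0.25 ± 0.06.

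Cell type markers moved with age as well, and the counts stand beside 12% higher and 11.7% lower over all genes tested. Of 13 tested T and natural killer cell genes 9 were higher and 0 lower, and of 9 B cell genes 9 were higher. Of the 18 T and natural killer cell genes, Ncr1 was at 0 in 13 young and 20 aged libraries and Gzmb in 17 and 13, whereas Cd3d was at 0 in none. Of 8 markers of monocyte-derived macrophages 5 were lower and 0 higher, and of 8 of resident peritoneal macrophages 5 were higher and 2 lower. As the T, natural killer and B cell markers moved with age themselves, their part in the age difference of the GTPases cannot be told apart from age by the marker scores above. That of the macrophage markers was not tested.

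The second comparison took each time on its own, with 3 libraries against 3. Of the 70 differences 7 were called, all with aged macrophages higher, 5 at ZT12 and 2 at ZT16. The background was 2.08% of all genes called at ZT12 (1.22% higher) and 1.06% at ZT16 (0.778% higher). At both times all 10 estimates were above 0, with a median log2 difference of 1.54 and 1.13. At ZT4 all 10 were below 0 (median −0.74, lowest −1.94 for Gbp8) and none was called, beside 1.35% of all genes. The other times had 0 calls, beside 0.794% (ZT0), 4.01% (ZT8), 1.65% (ZT20) and 2.09% (ZT24) of all genes.

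At ZT12 young macrophages had 14.3, 26.9 and 37.1 rescaled reads of Iigp1 and aged ones 141, 1381 and 3147, so the groups did not overlap. The log2 difference was 5.07 ± 0.95 (limma, adjusted p = 0.00126). Igtp, at 131, 203 and 198 against 247, 605 and 1506, differed by 1.80 ± 0.49 and Irgm1, at 7.14, 66.7 and 40.2 against 70.4, 180.3 and 203, by 2.29 ± 0.63 (limma, adjusted p of 0.0384 and 0.0432). For Ifi47 (179.6, 355 and 234 against 348, 961 and 1349) and Irgm2 (462, 550.1 and 343 against 521, 1422 and 2348) the lowest aged value fell below the highest young one, with differences of 1.64 ± 0.40 and 1.44 ± 0.38. All 5 are immunity-related GTPases, and none of Gbp2, Gbp3, Gbp5, Gbp7 and Gbp8 was called at ZT12. The call of Irgm1 ended under 8 alternatives that kept the ZT12 libraries, among them no filter on low values, edgeR and DESeq2, with adjusted p of 0.0514 to 0.124. Gbp2b (1.75 ± 0.36) and Gm4951 (2.08 ± 0.36) were called there too.

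At ZT16 Gbp8 was at 6.61, 4.98 and 0.807 in young and 145, 50.7 and 75.7 in aged libraries. The groups were far apart, with a log2 difference of 4.26 ± 0.75 (limma, adjusted p = 9.44e-04). Iigp1, at 14.3, 35.7 and 38.8 against 2061, 485 and 237, differed by 4.46 ± 0.95 (limma, adjusted p = 0.0106). Aged libraries were all above young ones for 6 of the 10 genes, as for 7.26% of all genes at that time. Gbp2 (0.88 ± 0.44) and Gbp7 (0.83 ± 0.29) were not called.

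Single libraries weigh heavily in groups of 3. Leaving out either high aged library at ZT12, replicate 2 or 3, or young replicate 1 or 3 at ZT12, left 3 calls (Iigp1 at both times and Gbp8 at ZT16) of 7. Without all 5 libraries that stood apart, which leaves 1 aged library at ZT12, Iigp1 differed there by 2.49 ± 0.80. Without aged replicate 1 or young replicate 1 at ZT16, each left out alone, Iigp1 was not called at ZT16 (limma, adjusted p of up to 0.0756). Without all 5, which were picked by the values of these genes, the differences at ZT16 were 3.86 ± 0.78 for Gbp8 and 3.59 ± 0.63 for Iigp1. Those of Iigp1 at ZT0 (2.57), ZT8 (1.90) and ZT20 (2.44) stayed the same, as no library of these times was left out. Without young replicate 1 at ZT4, the low library of that group, 14 differences were called. Of these, 6 were at ZT4 with young macrophages higher, namely Gbp2 (−1.74), Gbp3 (−1.35), Gbp5 (−1.95), Gbp7 (−1.47), Gbp8 (−3.02) and Igtp (−1.74). The young libraries left at ZT4 were then replicates 2 and 3, both among the 5 picked by the values of these genes. These calls are thus no independent result, and the share of all genes called at single times is not given for this setting.

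**Figure D4:**
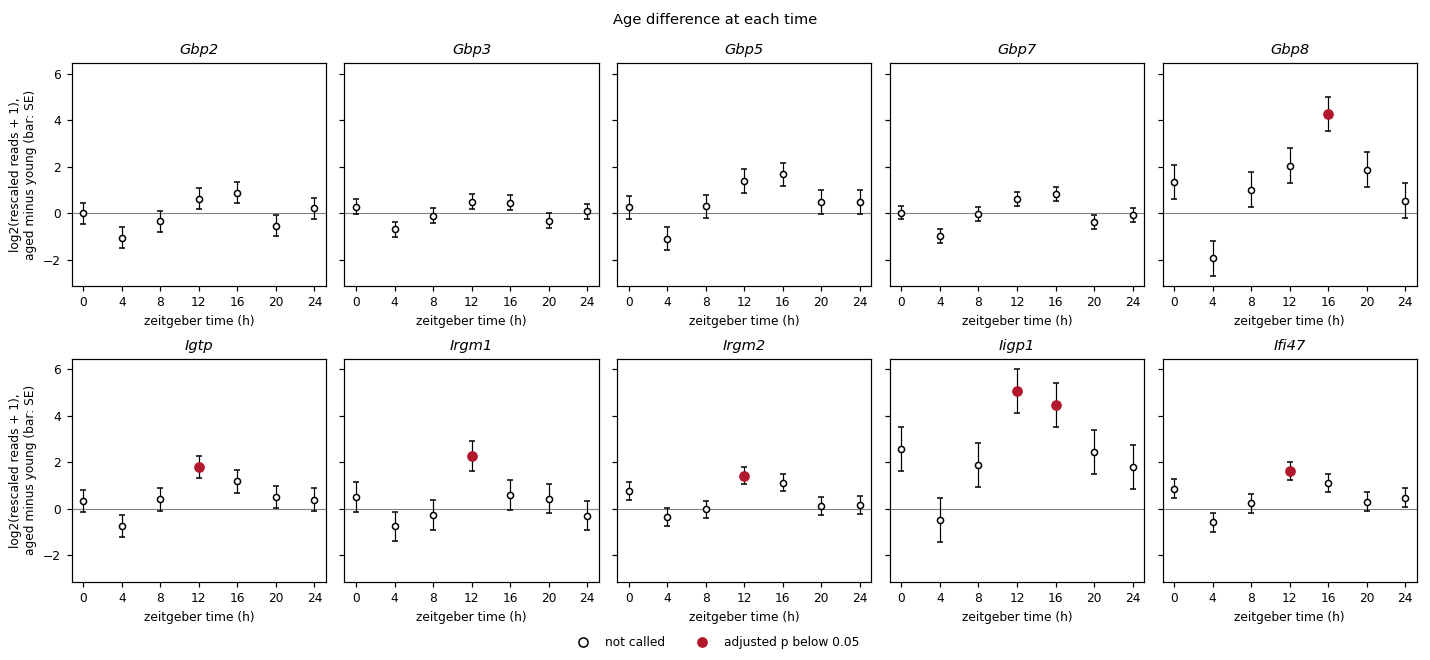
Log2 difference between aged and young macrophages at each zeitgeber time for each gene, on the scale of log2(rescaled reads + 1), with SE as bars. Red points passed an adjusted p of 0.05. Estimates lie below 0 at ZT4 in all 10 panels and above 0 at ZT12 and ZT16, where the 7 red points are.

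The last comparison asked whether the genes followed a 24 h rhythm. By limma's F-test on a cosine and a sine, none of the 10 was called in young macrophages (5 at an unadjusted p under 0.05), beside 3.62% of all 12113 genes tested there. None was called in aged macrophages (3 at an unadjusted p under 0.05), beside 0.308% of 12016. Gbp8 came closest, with an adjusted p of 0.0510 in young and 0.0907 in aged macrophages by limma. Its fitted amplitude was 1.44 ± 0.37 and 1.03 ± 0.22 on the log2 scale, with peaks at ZT 5.30 ± 0.87 h and 14.5 ± 0.86 h (SE). Iigp1 had a fitted amplitude of 1.59 ± 0.43 in young macrophages (limma, adjusted p = 0.0710) and 0.56 ± 0.36 in aged ones (0.764). Fitted peaks of the 10 lay between ZT 1.64 and 5.30 in young and between ZT 13.6 and 16.7 in aged macrophages. The libraries that stood apart had been taken at ZT4 in young and at ZT12 and ZT16 in aged macrophages.

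For the difference in rhythm between ages none of the 10 was called, as none of all 12086 genes was, which is 0% (7 of the 10 and 494 of all at an unadjusted p under 0.05). Gbp8 again had the lowest adjusted p, 0.0516 by limma, with a difference vector of 2.30 on the log2 scale. Other tools, run on the whole reads of 39 libraries, made some calls. EdgeR called Gbp5, Gbp8 and Iigp1 rhythmic in young macrophages, Gbp8 in aged ones and the difference of Gbp8, beside 3.18%, 0.341% and 0.0165% of all genes. DESeq2 called Iigp1 in young and Gbp8 in aged macrophages and the difference of both, beside 5.63%, 1.04% and 0.0661%. The 3 libraries not used by these tools were young replicate 2 at ZT4, which is one of the 5 that stood apart, aged replicate 2 at ZT0 and aged replicate 3 at ZT24. With aged replicate 2 at ZT0 alone left out, limma called Gbp8 in aged macrophages (adjusted p = 0.0385) and for the difference (0.0332). With 7 separate time levels in place of a cosine, limma called Gbp7 and Iigp1 as varying over time in young macrophages, beside 2.91% of all genes. Without the 5 libraries that stood apart, none of the 10 was called in young or aged macrophages or for the difference. The share of all genes called was then 3.64%, 0.175% and 0%. Those libraries were picked by the values of these genes and had been taken near the fitted peaks. Fits without them therefore cannot decide whether a rhythm is present.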

How the data were processed

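RNA of macrophages was made into QuantSeq 3′ libraries, per the labels' protocols. The submitters' processing notes name STAR, DESeq2 and mm10 without versions or roles; counter and annotation: not given in the sources used here. Values were deposited by the authors as a normalized signal, in 1 table for each age, and the tables are on separate scales. In each library they are whole multiples of the smallest value, within 0.001 for 100% of values, so division by it gave reads; in 3 libraries with a size factor close to 1 this could not be checked, and the division was used there as it stands. These reads were then put on 1 scale over the 42 libraries by the median of ratios.

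Symbols were looked up by Ensembl identifier, which gave one for 47224 of 47643 genes. A mean of at least 10 was required, and log2(rescaled reads + 1) was fitted by limma-trend (limma 3.58.1, R 4.3.3) with 14 group means, with contrasts for the day and for each time. Rhythms were fitted within each deposited table, and their difference over both ages, by a cosine and a sine of 24 h. A call is a Benjamini-Hochberg adjusted p under 0.05 over all genes tested. Depth limits the precision of genes with few reads, such as Gbp8. The tests were also run on simulated counts, drawn independently with the same spread setting for all genes and no libraries that stand apart. That check does not cover the wide, shared spread of these 10 genes.

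The genes, the lists of other genes and the rule for named genes (all 10, every tested relative, a fixed part of the signalling list, up to 3 of lowest p in each other list and the 6 most alike in pattern) were chosen with earlier results of these data known. Alternatives were other pseudocounts, filters, scalings, time models, a replicate block, marker scores as covariates, array weights, edgeR 4.0.16, DESeq2 1.42.0 and each library left out. EdgeR and DESeq2 ran on 39 libraries, without these 3. That restriction, and leaving out the high libraries, ZT4 or ZT12 and ZT16, were chosen after seeing the data. No sequence of Iigp1 or Gbp8 is shown. A gene of the signalling list is not reported here and is left out of that list's counts.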

Additional observations from a re-analysis of the deposited data

Results flagged for a closer look

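The estimates for Gbp7 lay on opposite sides of 0 at neighbouring times, and neither was called (limma, adjusted p of 0.209 at ZT16 and 0.663 at ZT20). At ZT16 all 3 aged libraries were above all 3 young ones (log2 difference 0.83 ± 0.29, SE), as for 7.26% of all genes. At ZT20 all 3 were below (−0.39 ± 0.29), and the share of all genes is not given for that time. Such an order of 3 against 3 is therefore only a description. The gap between these differences was 1.22 ± 0.41 on the log2 scale. Its unadjusted p was 0.00559 and its adjusted p 0.99999 by limma, with 0 of all genes called, so it did not pass.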

How the results depend on the processing

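With 5 of 10 genes called for level over the day, 7 of 70 differences at single times and 0 rhythms or differences in rhythm, all alternatives not named here kept these counts within 1.5 times, though not always the same genes: the call of Igtp for the day ended without a filter and with DESeq2, that of Irgm2 without ZT0, Gbp8 was not tested with a mean filter of 50, and the call of Irgm1 at ZT12 ended under 8 alternatives and that of Irgm2 there with the B cell score. For level over the day the count was 2 with the B cell score and 1 without ZT12 and ZT16 (added after the data were seen). Single times gave 3 without a filter and 1 without ZT12 and ZT16. Rhythms in young macrophages numbered 1 with a pseudocount of 4, the replicate block, the B cell score or DESeq2, 2 with 7 time levels and 3 with edgeR. Aged rhythms numbered 1 with array weights, edgeR or DESeq2. The difference in rhythm was called for 1 gene with a pseudocount of 0.5 or 4, upper quartile scaling, without ZT0 or with edgeR, and for 2 with DESeq2. Leaving out 1 library at a time gave 5 to 6 genes for the day, 3 to 14 for single times, 0 to 1 for young rhythms, 0 to 1 for aged rhythms and 0 to 1 for the difference. The single call came from leaving out young ZT0 replicate 3, ZT4 replicate 1, ZT8 replicate 1 or 2 or ZT20 replicate 2 or 3 (young rhythm), aged ZT0 replicate 2 (aged rhythm), or young ZT8 or ZT12 replicate 2 or aged ZT0 replicate 2, ZT12 replicate 1 or ZT20 replicate 2 (difference).

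Signs turned only for genes that were not called. For Gbp2 the value was 0.14 with the T and natural killer cell score, 0.047 with array weights, 0.16 without the high young ZT4 libraries and 0.13 without ZT4, and −0.14 to 0.057 over the libraries left out. For Gbp3 it was −0.021 without ZT0, −0.093 with the B cell score, −0.16 without ZT12 and ZT16, −0.017 with edgeR and −0.010 with DESeq2, and −0.074 to 0.11 over the libraries. For Gbp7 it was 0.010 without ZT24, 0.10 with the T and natural killer cell score, 0.042 with array weights, 0.14 without the high young ZT4 libraries and 0.16 without ZT4, and −0.070 to 0.065 over the libraries. Irgm1 was at −0.068 without ZT12 and ZT16. The causes were not tested. Replicate numbers did not pair the libraries: same-numbered libraries had a mean correlation of −0.004 in young and 0.0005 in aged macrophages, and 5 of 21 in each age correlated best with their own number. With the replicate block 5 genes were called for the day and Iigp1 for the young rhythm.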
